A study of Mus musculus with 2 samples.

Results

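Non-cycling activated satellite cells with little Myog were described from 206 cell barcodes of the injured-muscle library, out of 1468 barcodes kept in that library and 1984 kept in the series. Each cell barcode marks the transcripts of 1 droplet, and a transcript is counted once through its unique molecular identifier (UMI). The members were selected on measured values: at least 500 detected genes, at most 10% of UMIs from mitochondrial genes, under 5% from 10 muscle fibre genes, under 0.2% from 6 immune genes, under 0.1% from 12 cycling genes and under 0.05% from Myog, the gene of the differentiation factor myogenin. The first 4 limits left 423 muscle-class barcodes in the library, of which 137 were cycling, 80 were non-cycling and Myog-high, and 206 were the members. The same rule applied to the uninjured library gave 385 barcodes.

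The study compared quiescent satellite cells (QSC) of uninjured muscle with activated satellite cells (ASC) taken 1.5 days after injury of the tibialis anterior muscle with cardiotoxin, a snake toxin that destroys muscle fibres. Both groups came from 8-week-old mice of the genotype Pax7 CreERT2/+ ;Rosa26 mTmG/+, were isolated by cell sorting on fluorescence after enzymatic digestion, and gave 1 library each on the droplet platform of 10x Genomics (3' v2 chemistry). The Cre recombinase is an inducible form (CreERT2) driven from the Pax7 locus. It switches the reporter in cells that express Pax7 at induction and in their progeny. How it was induced is not stated for these groups. Both groups carry the driver on 1 Pax7 allele, and each library pooled several mice. The study asked what polyamines and the translation factor eIF5A do when satellite cells become active. With 1 library per group no difference has a replicate check, so no test was made, and library, injury and sort cannot be told apart.

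Satellite cells are the stem cells of skeletal muscle and lie between the fibre and its basal lamina. At rest they carry the transcription factor Pax7 and mostly also Myf5. After injury they switch on Myod1, enter the cell cycle as myoblasts, and later express Myog, leave the cycle and fuse into new fibres, while some return to rest.

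The members together held 1351016 UMIs. The median member had 5093 UMIs from 1576.5 genes, and 2.5% of its UMIs were mitochondrial. The median of the 385 uninjured barcodes lay at 2226 UMIs from 984 genes, with 4.83% of UMIs mitochondrial. Levels are given as CPM, the UMIs of a gene summed over the barcodes of a class and scaled to 1000000 UMIs of that class, with an exact Poisson 95% interval in parentheses. Differences are log2 ratios of these levels with an exact conditional binomial 95% interval. All intervals cover counting error only. Genes with at least 20 UMIs over the classes compared were counted as past 2-fold in a direction, which is a count by size and not a test.

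The limits on Myog and on the cycling genes cut through continuous values. Among the members 148 had no Myog UMI, 82 had no UMI of the 12 cycling genes and 64 had neither. There were 14 members at 0.025% to 0.05% Myog and 18 non-cycling barcodes just outside, at 0.05% to 0.1%. The highest Myog share inside was 0.0499% and the lowest outside 0.0521%. For the cycling genes 24 members lay at 0.05% to 0.1% and 57 cycling barcodes at 0.1% to 0.2%, with 0.0988% the highest share inside and 0.101% the lowest outside. In 8 members of low depth a single Myog UMI would have put the barcode outside. The uninjured library held the same barcode sequence for 1 member and for 4 deposited barcodes in all.

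**Figure D1:**
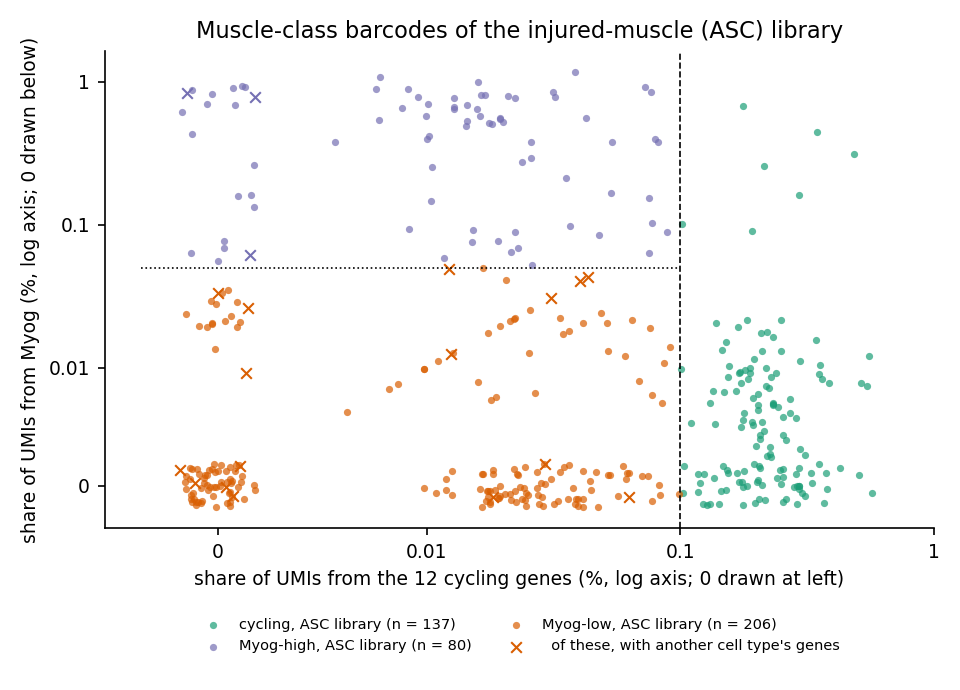
Share of UMIs from Myog against the share from the 12 cycling genes in the 423 muscle-class barcodes of the injured-muscle library, 1 point per barcode on log axes, with values of 0 drawn at the edge. The 206 members (orange) lie below 0.05% Myog (dotted) and left of 0.1% cycling genes (dashed), 64 of them at 0 on both axes, and crosses mark the 16 members and 3 Myog-high barcodes that carried many UMIs of another cell type.

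The label was checked against markers. Pax7, Myf5, Myod1 or Cdh15, which encodes M-cadherin of satellite cells, had a UMI in 176 of the 206 members and in 15 of the 106 immune barcodes. By limits set after the values were seen, 16 members carried a large share of transcripts of other cell types. In 2 of them haemoglobin transcripts made up 81.3% and 52.6% of all UMIs, against at most 0.146% in any other member. A further 5 carried endothelial genes, 2 mural genes, 1 fibroblast genes and 6 the slow-fibre genes Tnni1, Tnnc1, Myh7, Myl3 and Pln, the last 6 with a median of 0.0851% mitochondrial UMIs. Of these 16, 13 had no UMI of the 4 satellite cell genes. The erythroid list summed to 6400 CPM in all members and to 60.4 CPM without the 16. In the uninjured library the same limits marked 25 barcodes, 17 of them with fibroblast genes. Results are given for all members, and also for the remaining 190 members against 360 uninjured barcodes where the 16 and 25 barcodes move them.

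Lists of other cell types were summed over all members. The fibroblast list summed to 2733 CPM in the members and 9208 CPM in the uninjured barcodes, or 2653 and 4414 CPM without the 16 and 25 barcodes. The endothelial list summed to 75.5 and 97.6 CPM, or 14.1 and 37.6 CPM without them. The mural list summed to 1213 and 284 CPM, or 1100.1 and 262 CPM without them, mostly from Acta2 at 1171 and 213 CPM. The 9 macrophage genes summed to 81.4 CPM in the members, with a UMI of 8 of them in 83 members, against 16456 CPM in the immune barcodes of the same library. The Schwann cell, lymphocyte and tenocyte lists summed to 2.22, 2.22 and 33.3 CPM, and the neutrophil list to 25.9 CPM. The 12 fibre genes outside the rule summed to 3990 CPM in the members and 4421 CPM in the immune barcodes, so fibre transcripts were about as abundant in barcodes that should lack them. Whether free RNA from broken fibres gave these counts was not tested.

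The 4 genes that mark the class were Pax7, Myod1, Bgn and Cd82, placed here by the GENCODE M21 annotation on GRCm38. Pax7 (ENSMUSG00000028736, chr4:139737062-139833528, minus strand) measured 71.8 CPM (58.2 to 87.6) in the members, 202 CPM (174 to 234) in the uninjured barcodes, 10.8 CPM (5.199 to 19.9) in Myog-high and 16.4 CPM (12.2 to 21.7) in cycling cells. Myod1 (ENSMUSG00000009471, chr7:46376474-46379099, plus strand), the factor that commits the cell to myogenesis, measured 363 CPM (332 to 397) in the members against 136 CPM (113 to 162) in the uninjured barcodes, and 486 CPM (442 to 533) and 416 CPM (393 to 439) in Myog-high and cycling cells. The members therefore stood below the uninjured barcodes for Pax7 and above them for Myod1, and were the class with the most Pax7 in the injured library. Bgn (ENSMUSG00000031375, chrX:73483602-73495933, plus strand) encodes biglycan, a small proteoglycan of the matrix, and measured 845 CPM (796 to 895) in the members, 167 CPM (141 to 196) in the uninjured barcodes, 232 CPM (202 to 265) in Myog-high and 126 CPM (114 to 139.5) in cycling cells. Cd82 (ENSMUSG00000027215, chr2:93419111-93463140, minus strand), a tetraspanin of the cell surface, measured 455 CPM (419.9 to 493), 189.7 CPM (162 to 221), 673 CPM (621 to 728) and 365 CPM (344 to 387) in the same order. Bgn was thus highest in the members, while Cd82 was highest in the Myog-high cells.

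**Figure D2:**
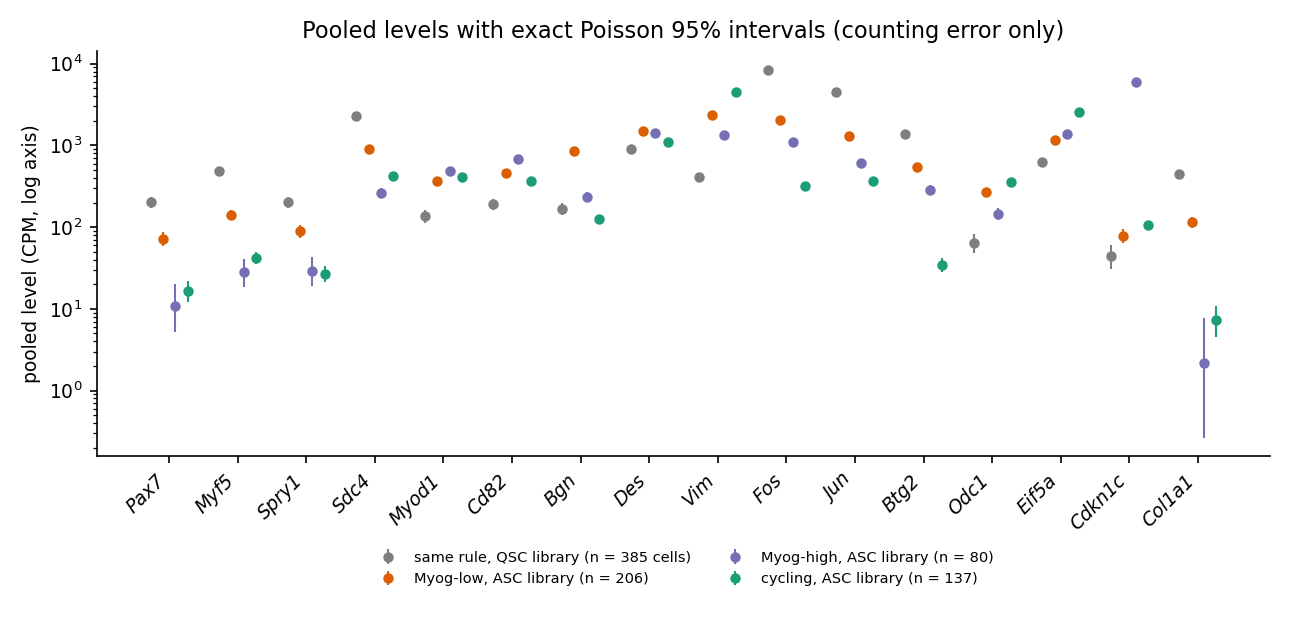
Pooled levels in CPM on a log axis for 16 genes in the 4 muscle classes, with points for the level and bars for the exact Poisson 95% interval of counting error. The members (orange) lie between the uninjured barcodes (grey) and the cycling cells (green) for Pax7, Myf5, Sdc4, Fos, Jun and Btg2, and above the other 3 classes for Bgn.

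Detection was compared at even depth as the share of barcodes with a UMI, with exact Clopper-Pearson 95% intervals. Each barcode was thinned to 1200 UMIs, which left out 1 member and 8 uninjured barcodes. Pax7 was then found in 8.78% (5.29 to 13.5%) of members and 16.2% (12.6 to 20.3%) of uninjured barcodes, and Myod1 in 25.9% (20.01 to 32.4%) and 14.6% (11.2 to 18.6%). The members were lower for Pax7 and higher for Myod1 at this depth, with intervals that overlap for Pax7 and do not for Myod1. Thinning to 3000 UMIs kept 180 members and only 53 uninjured barcodes. Of these, 22 and 10 had both genes, 58 and 11 Myod1 alone, 21 and 9 Pax7 alone, and 79 and 23 neither. Without barcodes of other types 168 members and 42 uninjured barcodes remained at 3000 UMIs. Of these, 22 and 10 had both genes, 58 and 10 Myod1 alone, 21 and 9 Pax7 alone, and 67 and 13 neither. Myod1 detection was thus much closer between the classes at 3000 UMIs, and the members no longer stood higher without barcodes of other types. Without thinning the shares were 29.6% and 30.9% for Pax7 and 51.9% and 20.3% for Myod1. Bgn was found in 48.8% (41.8 to 55.8%) of thinned members and 14.1% (10.7 to 17.98%) of thinned uninjured barcodes, or 76.2% and 24.4% without thinning. In the immune barcodes, with a median of 5449 UMIs, the thinned shares were 0% of 100 for Pax7, where a floor of 3 counts allows a share of up to 3%, 2% for Myod1 and 1% for Bgn, so the members lay above that background. Cd82 stood at 40% (33.2 to 47.1%) in the thinned members and 11% in the immune barcodes, or 74.3% and 31.1% without thinning.

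Cell by cell, 36 of the 206 members had UMIs of both Pax7 and Myod1, 25 of Pax7 alone, 71 of Myod1 alone and 74 of neither. At 1200 UMIs per barcode the numbers were 7, 11, 46 and 141 of 205. Absence of a UMI at this depth does not show absence of the transcript.

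Satellite cell identity and quiescence genes were lower in the members than in the uninjured barcodes. Of 23 listed genes with enough UMIs, 14 were at least 2-fold lower and 0 at least 2-fold higher, with a median log2 ratio of -1.19. Over all 7659 genes 18.9% were at least 2-fold lower and 8.9% at least 2-fold higher, with a median of -0.19. Myf5, the second early myogenic factor, measured 141 CPM (122 to 163) against 489 CPM (444 to 537). Spry1, which restrains growth factor signalling in quiescent cells, measured 88.8 CPM (73.6 to 106) against 202 CPM (174 to 234). Sdc4, a heparan sulfate receptor used to isolate satellite cells, measured 901 against 2268 CPM, and Gas1, a growth arrest gene, 224 against 784 CPM. Pax7 had a log2 ratio of -1.49 (-1.86 to -1.13) and Myf5 of -1.79 (-2.04 to -1.54). Calcr, the calcitonin receptor that holds satellite cells at rest, was low in both classes, at 9 UMIs in the members and 23 in the uninjured barcodes. Its log2 ratio was -1.95 (-3.25 to -0.79).

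Some identity genes did not follow. Cdh15 had a log2 ratio of 0.22 (-0.03 to 0.47), an interval that includes 0. Itga7, the laminin-binding integrin of the satellite cell membrane, and Asb5 had log2 ratios of 0.92 (0.45 to 1.4) and 0.96 (0.65 to 1.28). Fgfr4, a growth factor receptor, stood at -0.19 (-0.49 to 0.11). Vcam1, an adhesion receptor, was lower by less than 2-fold, at -0.59 (-0.79 to -0.39). The members thus kept the adhesion gene Cdh15 at a level near that of uninjured barcodes while the Pax7, Myf5 and Spry1 levels were lower.

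Commitment genes were mixed, with 6 of 19 at least 2-fold higher, 2 at least 2-fold lower and a median log2 ratio of 0.55. The shares over all genes were 8.9% and 18.9%. Beside Myod1, at 1.42 (1.13 to 1.72), and Bgn, at 2.34 (2.09 to 2.59), the intermediate filament gene Vim measured 2366 against 412 CPM and had a log2 ratio of 2.52 (2.37 to 2.68). Vim was also at 2912 CPM in the immune barcodes. Des, the muscle intermediate filament, had a log2 ratio of 0.74 (0.62 to 0.86). Rgs16, a regulator of G protein signalling, was found with 43 and 3 UMIs, a log2 ratio of 3.24 (1.6 to 5.57). The 2 lower genes were Igfbp5, an insulin-like growth factor binding protein, at -1.55 (-1.78 to -1.32), and Boc, a co-receptor that promotes myogenesis, at -1.7 (-2.73 to -0.74).

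Immediate-early genes, which cells switch on within minutes of a stimulus or of tissue digestion, had the lowest median of the 15 lists of gene programmes. Of 22 genes 14 were at least 2-fold lower in the members, 1 was at least 2-fold higher and the median log2 ratio was -1.39. Among all genes 18.9% were lower and 8.9% higher. The members were uneven, since the list summed to 26941 CPM in 1 cluster of 69 cells, described further on. In the other clusters it summed to 2348, 8828 and 6465 CPM. Those 69 cells measured 6332 CPM of Fos, and the other clustered members 680 CPM. Fos measured 2059.9 CPM in the members and 8364 CPM in the uninjured barcodes, Jun 1305 and 4481 CPM, and Junb 1614 and 5244 CPM. Their log2 ratios were -2.02 (-2.08 to -1.96), -1.78 (-1.86 to -1.7) and -1.7 (-1.77 to -1.63). Fosb, Maff and Nr4a1 were further down, at -2.71 (-2.83 to -2.59), -2.3 (-2.57 to -2.04) and -2.44 (-2.7 to -2.2). Fosl1, a Fos relative found in growing cells, was the exception, with 76 UMIs in the members and 1 in the uninjured barcodes and a log2 ratio of 5.65 (3.13 to 10.97). Fosl1 too was uneven, at 184 CPM in 1 cluster of 29 cells, described further on, and 20.2 CPM in the other clustered members. Of those 29 cells 12 had no UMI of Pax7, Myf5, Myod1 or Cdh15. Fos was also at 1712 CPM in the immune barcodes of the injured library. Digestion was stated alike for both groups, and its part in these levels was not tested.

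The promoters of 3 of these genes are printed to show the sequence around their start sites, 250 bases before to 50 bases after the first listed start in RefSeq on GRCm38.p6, 5′ to 3′ on the gene's strand. Capitals mark TGACG and its reverse complement CGTCA, the half-site of the cAMP response element through which many immediate-early genes are induced, searched on both strands. Egr1 was not searched, since its chromosome was left out. The other listed genes not searched had no entry under their symbol in the promoter set used. A half-site was found in 8 of the 17 immediate-early genes searched, of 22 listed, and in 21.0% of the promoters of all 27025 genes searched. Fos (chr12:85473640-85473939, plus strand) held 2 and Nr4a1 (chr15:101266596-101266895, plus strand) held 4. Btg2 (chr1:134079106-134079405, minus strand), which encodes an antiproliferative protein and measured 545 CPM in the members against 1371 CPM, held the full palindrome TGACGTCA, in which both half-sites overlap. A match is a string in this window and was not measured as a bound site here.
Fos: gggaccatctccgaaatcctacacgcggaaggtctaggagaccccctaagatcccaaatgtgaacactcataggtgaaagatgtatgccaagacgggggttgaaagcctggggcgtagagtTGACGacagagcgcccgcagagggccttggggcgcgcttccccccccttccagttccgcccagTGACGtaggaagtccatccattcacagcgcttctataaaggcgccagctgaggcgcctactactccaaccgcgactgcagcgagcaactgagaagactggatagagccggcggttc
Nr4a1: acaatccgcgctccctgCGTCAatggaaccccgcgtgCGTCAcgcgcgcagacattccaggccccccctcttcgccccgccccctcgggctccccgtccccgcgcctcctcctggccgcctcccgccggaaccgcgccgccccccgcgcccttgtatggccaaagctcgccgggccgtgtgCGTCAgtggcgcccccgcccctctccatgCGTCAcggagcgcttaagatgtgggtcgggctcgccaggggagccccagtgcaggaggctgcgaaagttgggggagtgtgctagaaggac
Btg2: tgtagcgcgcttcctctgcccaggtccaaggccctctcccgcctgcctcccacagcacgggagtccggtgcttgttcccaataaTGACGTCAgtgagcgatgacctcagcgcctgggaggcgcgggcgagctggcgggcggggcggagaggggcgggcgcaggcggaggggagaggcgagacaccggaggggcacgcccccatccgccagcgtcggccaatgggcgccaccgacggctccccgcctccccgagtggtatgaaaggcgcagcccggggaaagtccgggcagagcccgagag

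Notch and Id genes, which hold satellite cells undifferentiated, were mixed, and few differences were large. Of 11 Notch pathway genes 4 were at least 2-fold lower and 0 at least 2-fold higher, with a median log2 ratio of -0.43. Across all genes the shares were 18.9% and 8.9%, with a median of -0.19. The receptor genes Notch2 and Notch3 had log2 ratios of -1.45 (-1.78 to -1.13) and -1.47 (-1.96 to -1.0), the ligand gene Jag1 of -3.26 (-4.8 to -2.01) from 6 and 38 UMIs, and the target gene Hes1 of -1.69 (-1.93 to -1.46). The targets Heyl and Hey1 stood at -0.43 (-0.82 to -0.03) and -0.45 (-1.25 to 0.36). Among 7 genes of the Id and E proteins 2 were at least 2-fold lower, Id3 at -1.14 (-1.24 to -1.04) and Id4 at -3.14 (-4.69 to -1.88). Id1 stood at -0.46 (-0.75 to -0.18) and Id2 at 0.43 (0.19 to 0.68). A count of 2 in 7 is not far from the share over all genes.

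Cell cycle genes outside the rule were low in the members but above the uninjured barcodes for some S phase genes. These levels are partly fixed by the limit on cycling genes, which was applied alike to both libraries. Of 22 listed S phase genes 12 had enough UMIs over both classes together, so a gene could pass through the members alone. Among these 12 genes 6 were at least 2-fold higher and 1 at least 2-fold lower, with a median log2 ratio of 1.02. Genes with fewer UMIs are left out of this median. Over all genes 8.9% were higher and 18.9% lower. The replication licensing gene Mcm2 had 34 UMIs against 2 and Cdt1 19 against 3. Slbp, which binds histone transcripts, was the lower one, at -1.09 (-1.59 to -0.59). Only 8 of 22 listed G2 and mitosis genes had enough UMIs, and 3 were at least 2-fold higher. These included Cenpa, with 60 UMIs against 3, and Ccnb2, with 45 against 0. Of the Ccnb2 UMIs 38 lay in 1 cluster of 26 cells, described further on. Ccnd1, the D-type cyclin of G1 entry, measured 138 CPM (119 to 159) against 67.3 CPM (51.4 to 86.7), and its partner kinase gene Cdk4 had a log2 ratio of 0.86 (0.56 to 1.16). The cyclin-dependent kinase inhibitor gene Cdkn1b, which holds cells in G1, measured 19.2 CPM (12.6 to 28.2) against 83.04 CPM (65.2 to 104), and Cdkn1a 315 against 612 CPM.

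Genes of biosynthesis were moderately higher. Of 21 ribosome biogenesis genes 7 were at least 2-fold higher, 0 at least 2-fold lower and the median log2 ratio was 0.47. For all genes the shares were 8.9% and 18.9%. Nhp2, a subunit of the complexes that modify ribosomal RNA, had the highest ratio of the list at 2.32 (1.89 to 2.78), and Npm1, a nucleolar chaperone, stood at 0.98 (0.84 to 1.13). Ncl, nucleolin, stood at 0.32 (0.16 to 0.49). The members were uneven here, since the list summed to 7399 CPM in one cluster of 29 cells, described further on, and to 2186, 2608 and 3520.3 CPM in the others. Of 16 glycolysis genes 4 were at least 2-fold higher and 0 lower, with Hk2, the first enzyme of the pathway, at 1.78 (1.19 to 2.42), Gapdh at 1.61 (1.51 to 1.7) and a median of 0.52. The lactate dehydrogenase gene Ldha stood at 0.6 (0.45 to 0.75).

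Among the polyamine genes the rate-limiting enzyme and spermidine synthase stood apart. Odc1, ornithine decarboxylase, measured 272 CPM (245 to 302) in the members and 63.97 CPM (48.4 to 82.9) in the uninjured barcodes, a log2 ratio of 2.09 (1.68 to 2.52). Srm, spermidine synthase, measured 132 CPM (113 to 153) against 53.9 CPM (39.7 to 71.4), a log2 ratio of 1.29 (0.82 to 1.78). Sms, spermine synthase, and Eif5a, whose protein carries hypusine made from spermidine, had log2 ratios of 0.86 (0.38 to 1.36) and 0.89 (0.75 to 1.03). The same 29 cells, of which 12 had no UMI of Pax7, Myf5, Myod1 or Cdh15, measured 2644 CPM of Eif5a, and the clusters of 69, 66 and 26 cells 654, 746 and 991 CPM, beside 657 CPM in the 360 uninjured barcodes. For Odc1 the 4 clusters stood at 647 CPM in the 29 cells and 134, 224 and 166 CPM in the others, and for Srm at 306 CPM and 77.3, 61.96 and 122 CPM. Sat1, which acetylates polyamines for their breakdown or export, had the opposite sign at -0.99 (-1.26 to -0.71). The enzymes that form hypusine stood at 0.29 (-0.54 to 1.15) for Dhps and 0.81 (0.18 to 1.48) for Dohh. Over the 12 genes with enough UMIs 2 were at least 2-fold higher and 0 at least 2-fold lower, with a median of 0.06. Shares over all genes were 8.9% and 18.9%. Odc1 had a UMI in 15.6% (10.9 to 21.3%) of members and 7% of immune barcodes at 1200 UMIs, or 55.8% and 26.4% without thinning.

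Matrix genes depended on barcodes of other types. With all barcodes 15 of 29 genes with enough UMIs were at least 2-fold lower in the members and 3 at least 2-fold higher. The median log2 ratio was -1.02, and 18.9% of all genes were lower and 8.9% higher. Without the 16 and 25 barcodes 5 of 25 were lower, 4 higher and the median was -0.17, beside 17.3% lower and 9.36% higher among all 7309 genes in that set. Col1a1, a fibrillar collagen gene, moved from -1.96 to 0.19 (-0.22 to 0.6) and Col1a2 from -2.15 to 0.97 (0.46 to 1.49). Dcn, decorin of fibroblasts, moved from -4.04 to -1.54 (-2.48 to -0.65). Bgn was higher either way, at 2.34 (2.09 to 2.59) with all barcodes and 2.55 (2.28 to 2.83) without them. Timp1, an inhibitor of matrix proteases, had 118 UMIs in the members and 1 in the uninjured barcodes, and the protease gene Adam12 22 and 2. Nid1, nidogen of the basal lamina, was lower either way, at -4.39 (-5.64 to -3.37) and -3.76 (-5.71 to -2.28). Col4a1 and Timp3 stood at -1.22 (-1.52 to -0.93) and -1.34 (-1.7 to -0.99) with all barcodes. Their ratios without the 16 and 25 barcodes are not given here.

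**Figure D3:**
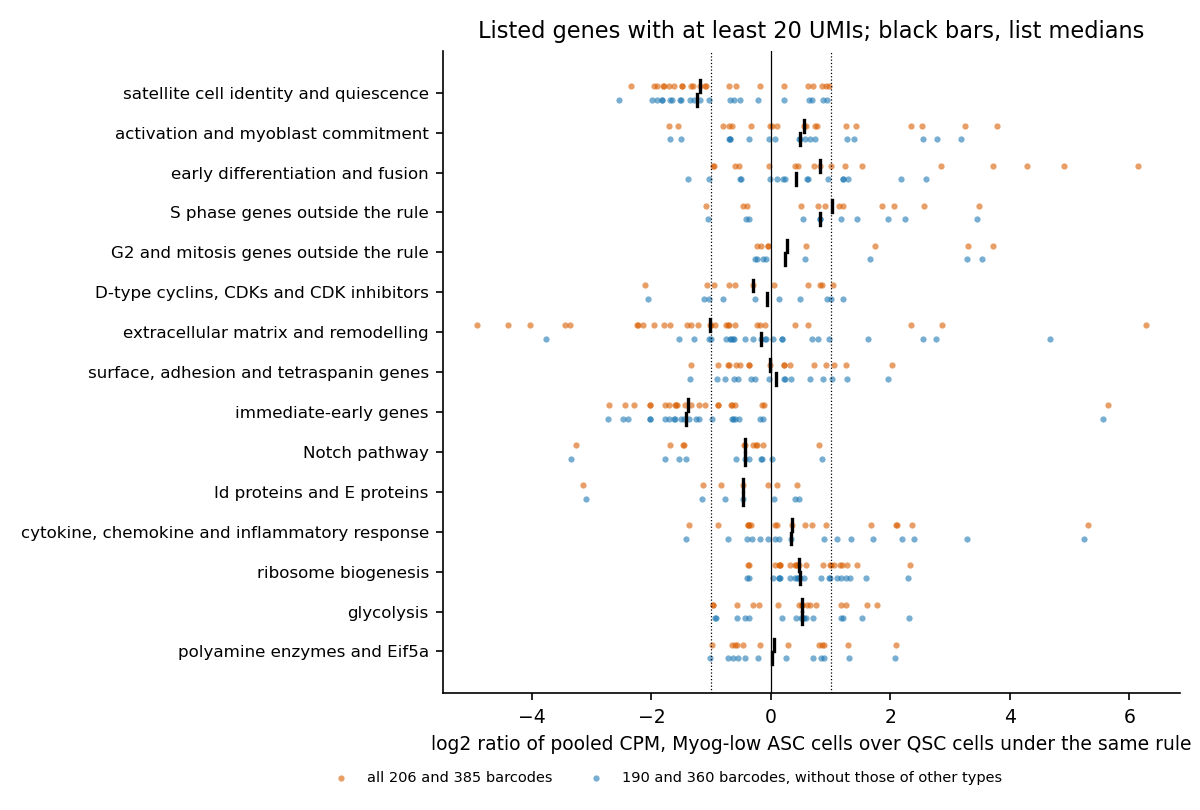
Log2 ratio of pooled CPM in the members over the uninjured barcodes under the same rule, 1 point per listed gene with at least 20 UMIs, 15 lists, with all barcodes (orange) and without those of other cell types (blue). Black bars are list medians and dotted lines mark 2-fold; the medians of the immediate-early and identity lists lie left of 0 in both sets, and the matrix median moves from -1.02 to -0.17.

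Early differentiation genes were affected in the same way. Of 24 listed genes 17 had enough UMIs over both classes together, so a gene could pass through the members alone. With all members 8 of these 17 were at least 2-fold higher than in the uninjured barcodes, 0 lower, and the median log2 ratio was 0.83. Genes with fewer UMIs are left out of the medians. Without the barcodes of other types 5 of 16 were higher, 2 lower and the median was 0.42. All genes stood at 8.9% higher and 18.9% lower, or 9.36% and 17.3% without those barcodes. Tnni1, a slow troponin gene with 0 UMIs in the uninjured barcodes, went from 320 UMIs and at least 70.4-fold higher to 9 UMIs and at least 1.94-fold, where the bound sets the count of 0 to 3. Cardiac Tnnt2, also at 0 UMIs there, went from at least 29.9-fold to at least 6.03-fold, and the slow Tnnt1 from a log2 ratio of 2.85 (2.43 to 3.29) to -0.02 (-0.55 to 0.52). Mymk, the fusion factor myomaker, had 3 UMIs in the members and 0 in the uninjured barcodes. Chrna1, a subunit of the acetylcholine receptor, measured 158 CPM (137 to 180.3) against 78.6 CPM (61.2 to 99.3), and Cdkn1c, an inhibitor gene of cell cycle exit, 77.7 CPM (63.6 to 94.1) against 43.8 CPM (31.1 to 59.8). Myl1, a fast light chain gene, was at 2515 CPM in the members and 2694 CPM in immune barcodes.

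Inflammatory response genes were also mixed, with 5 of 17 at least 2-fold higher, 1 lower and a median of 0.35. Taken over all genes, 8.9% were higher and 18.9% lower. Ccl7, a chemokine that attracts monocytes, measured 139 CPM (120 to 161) against 43.8 CPM (31.1 to 59.8). Its level was 443 CPM in 1 cluster of 66 cells, described further on, and 39.5 CPM in the other clustered members. Cxcl1, a neutrophil chemokine, measured 258 against 667 CPM, a log2 ratio of -1.37 (-1.57 to -1.18). Lgals1, galectin 1, measured 5131 against 1189.6 CPM, and S100a4 339 against 79.7 CPM. S100a4 was uneven, at 857 CPM in 1 cluster of 26 cells, described further on, and 188 CPM in the other clustered members. Spp1, osteopontin, had 179 UMIs in the members and 0 in the uninjured barcodes, at least 39.4-fold higher. In immune barcodes of the same library Spp1 was at 1195 CPM, Ccl7 at 1001 CPM and Lgals1 at 3167 CPM. The part of free RNA in the members' levels of these genes was not tested.

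Among the surface genes Cd44, the hyaluronan receptor, had the highest ratio at 2.03 (1.44 to 2.67) and Sdc4 the lowest at -1.33 (-1.44 to -1.23). Only Cd44, Cd82 and Sdc3 were at least 2-fold higher, and Sdc4 alone at least 2-fold lower, of 17 genes. By the same count 8.9% of all genes were higher and 18.9% lower. The tetraspanin genes Cd9, Cd81 and Cd63 stood within 2-fold, at -0.37 (-0.53 to -0.21), -0.37 (-0.52 to -0.23) and 0.32 (0.23 to 0.41).

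By size alone, the 10 highest ratios over the uninjured barcodes among genes of at least 100 CPM were Myl10, Hba-a1, Hba-a2, Sln, Tnni1, Hbb-bt, Tnnc1, Spp1, Hbb-bs and Tnnt2, most of them genes of erythroid or slow-fibre barcodes. Without those barcodes the 10 were Spp1, Ifi27l2a, Nmrk2, Mustn1, Bst2, C1qtnf3, Csrp3, Ankrd2, Vim and Mest. Ifi27l2a and Bst2, both induced by interferon, measured 233 and 169 CPM in these 190 members against 7.28 and 9.71 CPM in 360 uninjured barcodes, with log2 ratios of 5.0 (3.86 to 6.46) and 4.12 (3.11 to 5.35). C1qtnf3, a secreted protein, stood at 3.66 (2.89 to 4.55) and was at 5.23 CPM in immune barcodes. Mest, an imprinted gene of growth, stood at 2.74 (1.91 to 3.68) with 1.74 CPM in immune barcodes. Ifi27l2a and Mest were uneven, at 671 and 269 CPM in 1 cluster of 26 cells, described further on. The other clustered members measured 90.4 and 51.9 CPM of them. Mustn1, Csrp3, Ankrd2 and Nmrk2, which injured or stretched fibres express, measured 612, 361, 201 and 182 CPM in the members and 882, 504, 230.2 and 298 CPM in immune barcodes, so for these 4 genes the members did not stand above barcodes of another type.

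The 10 lowest ratios with all barcodes were Gm17167, Mfap5, Tnxb, Lum, Igfbp6, Sik1, Nid1, Dcn, Clec3b and Zbtb16, and most of the protein-coding ones among them are fibroblast genes. Without the barcodes of other types they were Gm17167, Sik1, Gm26802, Zbtb16, Gm26917, Gm17056, Plac9b, AY036118, Fosb and Nr4a1. Sik1, a kinase gene induced by cAMP, measured 5.49 CPM (2.21 to 11.3) in the members and 126 CPM (103 to 153) in the uninjured barcodes. Zbtb16, a transcription factor gene induced by glucocorticoids, measured 11.8 CPM (6.58 to 19.4) against 141 CPM (116 to 169). Gm17167, a gene model without a known function, had 3 UMIs against 107, a log2 ratio of -5.79 (-8.09 to -4.2). AY036118 lies over ribosomal RNA sequence and stood at -2.75 (-3.28 to -2.25).

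The rule itself separated the members from the Myog-high and cycling cells of the same library, so the differences from those cells are descriptions from which nothing further is read. Against Myog-high cells, of 7202 genes 9.69% were at least 2-fold higher in the members and 7.26% at least 2-fold lower. Identity genes were higher in 11 of 21 and lower in 1, with a median log2 ratio of 1.41. Pax7 stood at 2.73 (1.79 to 3.83), Myf5 at 2.33 (1.73 to 2.98), Apoe at 3.2 (2.93 to 3.49) and Sdc4 at 1.77 (1.57 to 1.98). Cdh15 stood at -0.01 (-0.24 to 0.23), and the lower one was Sox8, a transcription factor gene, at -1.87 (-2.88 to -0.94). Hes1 and Heyl stood at 2.33 (1.78 to 2.93) and 1.35 (0.77 to 1.97), while the Notch ligand gene Dll1 and Hes6 were lower at -2.89 (-3.84 to -2.05) and -2.22 (-2.63 to -1.82).

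Matrix genes were higher in 18 of 25 and lower in 0 (median 1.50), beside 9.69% higher and 7.26% lower over all genes. Col1a1 had 155 UMIs in the members and 2 in the Myog-high cells, and Col6a1 107 and 9. The ratio of Col1a1 was 5.65 (3.77 to 8.71) without the barcodes of other types. Immediate-early genes were at least 2-fold higher in 10 of 21 and lower in 0 (median 0.92). Inflammatory genes were at least 2-fold higher in 8 of 17 and lower in 0 (median 0.92), with Ccl7 at 3.3 (2.49 to 4.24). Most Ccl7 UMIs of the members came from few cells of 1 cluster, described further on. Differentiation genes were at least 2-fold lower in 15 of 23, or 16 of 22 without the barcodes of other types, where 7.48% of all genes were lower and 9.13% higher. Mymk had 3 UMIs in the members and 507 in the Myog-high cells. Cdkn1c measured 77.7 CPM (63.6 to 94.1) in the members and 5997 CPM in the Myog-high cells, and the cardiac actin gene Actc1 44.4 CPM (33.9 to 57.2) and 1192 CPM.

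By size, the 8 highest ratios without the barcodes of other types included Col1a1, Ccl7, Gpx3, Apoe, Slc43a3, Igfbp7 and Prelp. Gpx3, a secreted glutathione peroxidase, measured 2629.8 CPM against 269.7 CPM. The matrix proteoglycan gene Prelp stood at 3.08 (2.41 to 3.84). With all members the haemoglobin genes Hba-a1, Hba-a2, Hbb-bs and Hbb-bt were among the 8, and Slc43a3, Apoe and Prelp were not. The 8 lowest were Mymk, Cdkn1c, Fndc5, Actc1, Dbn1, Lmnb2, Inppl1 and Spg21 in both sets.

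Against the cycling cells 13.1% of 8925 genes were at least 2-fold higher in the members and 14.7% at least 2-fold lower. All 22 S phase genes and all 22 G2 and mitosis genes outside the rule were at least 2-fold lower, with medians of -2.39 and -3.35, a direction that the limit on cycling genes largely sets. Identity genes were at least 2-fold higher in 17 of 21 and lower in 0 (median 1.55). Immediate-early genes were higher in 19 of 21 and lower in 0 (median 2.29), with Btg2 at 3.99 (3.7 to 4.3) and Fos at 2.68 (2.58 to 2.79). Matrix genes were higher in 21 of 28 and lower in 3 (median 1.90), and the lower ones were Tnc, Timp1 and Lamb1.

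Biosynthesis genes had the other sign against cycling cells. Ribosome biogenesis genes were at least 2-fold lower in 12 of 22 and higher in 0 (median -1.02), and polyamine genes were lower in 4 of 13 and higher in 1 (median -0.57). The shares over all genes were 14.7% lower and 13.1% higher. Srm stood at -1.53 (-1.76 to -1.3) and Eif5a at -1.14 (-1.22 to -1.06), while Odc1 stood at -0.37 (-0.55 to -0.2). Ccnd1 measured 138 CPM in the members against 361 CPM, and Cdk6, the second kinase of D-type cyclins, 20.7 against 154 CPM. Vim, Spp1 and Timp1 stood at -0.93 (-0.99 to -0.88), -2.39 (-2.62 to -2.17) and -1.72 (-2.01 to -1.44).

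By size, the 8 highest ratios over cycling cells without the barcodes of other types included Slc10a6, Chodl, Gas6, Btg2, Prelp, Col1a1 and Hsd11b1. Chodl, chondrolectin, measured 365 CPM (333 to 400.1) in the members and 20.1 CPM (15.3 to 25.8) in the cycling cells, and Gas6, a growth arrest ligand, 131 CPM (112 to 152) against 7.56 CPM (4.79 to 11.3). Hsd11b1, the enzyme that activates glucocorticoids, stood at 3.9 (3.28 to 4.57). With all members haemoglobin genes, Tnni1 and Myl10 also entered the 8. The 8 lowest were Hist1h2ap, Pbk, Ccna2, Tk1, Ube2c, Hmgb2, Cdca8 and Hells in both sets.

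Variation among the members was described by clustering the 190 that remained without barcodes of other types. Clusters were formed on these cells' own transcripts, so the genes that lead them are a description and were not tested, and no cluster was given a cell type name. There were 4 clusters, of 69, 29, 66 and 26 cells. Their median depths were 4429, 7262, 4701.5 and 11278 UMIs, so clusters 2 and 4 were deeper than clusters 1 and 3. With all 206 members there were 6 clusters, of which 1 with 50 cells held the erythroid, endothelial and mural barcodes and 1 with 6 cells was the slow-fibre barcodes.

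Cluster 1 was led by Hspa1a, Fos, Hspa1b, Egr1, Hes1, Ier2, Btg2 and Egr2, that is by heat shock and immediate-early genes and the Notch target Hes1. Its 69 cells measured 6332 CPM of Fos against 334, 381 and 1324 CPM in clusters 2, 3 and 4. The 22 immediate-early genes summed to 26941 CPM in cluster 1 and 2348, 8828 and 6465 CPM in the others. Pax7 was highest there too, at 143 CPM with a UMI in 31 of 69 cells, and Hes1 measured 434 CPM against 61.96 CPM in cluster 3. Most of the Fos of the members was thus in cluster 1, which held 2129 of 2768 Fos UMIs.

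Cluster 3 was led by Tnfaip6, Ccl7, Ccl11, Creb5, Arl4d, Ifit1, Smim3 and Cxcl10, among them chemokine and interferon-induced genes. Tnfaip6, a hyaluronan-binding protein made in inflammation, measured 248 CPM with a UMI in 30 of 66 cells, against 23.8, 0 and 22.4 CPM in clusters 1, 2 and 4. Ccl7 came from few cells, with 150 of its 187 UMIs in 14 cells of cluster 3. Pax7 measured 88.5 CPM and Bgn 1159.6 CPM, close to the 1285 CPM of Bgn in cluster 1. Apoe, a lipid carrier that quiescent satellite cells express, was at 2195 and 2065 CPM in clusters 1 and 3 and at 52.2 and 291 CPM in clusters 2 and 4.

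Cluster 2 was led by Fosl1, Nr2c2ap, Acot7, Ddx39, Rras2, Pno1, Ercc1 and Mak16, of which Pno1 and Mak16 act in ribosome assembly. Ribosome biogenesis genes summed to 7399 CPM there against 2186, 2608 and 3520.3 CPM in clusters 1, 3 and 4, and polyamine genes with Eif5a to 5347 against 2507, 2829.6 and 2894 CPM. Odc1 had a UMI in 23 and Eif5a in 28 of its 29 cells. Cluster 2 therefore had the highest pooled level of both genes among the members. It also had the lowest median mitochondrial share, 1.61% against 2.7%, 2.7% and 2.11% in clusters 1, 3 and 4. The 10 clustered members with at most 1% mitochondrial UMIs all lay in cluster 2.

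Pax7, Bgn and Cdh15 were lower in cluster 2 than in the other clusters. Pax7 had a UMI in 2 of its 29 cells and Bgn in 4, at 6.96 and 24.4 CPM. Cdh15 measured 55.7 CPM against 387, 378 and 333 CPM in the others. Cd82 measured 358 CPM, close to the 369 CPM of cluster 1, and Asb5 160 against 107 CPM. Myod1 measured 574 CPM, with 165 UMIs in 14 cells. In 12 of its 29 cells none of Pax7, Myf5, Myod1 and Cdh15 had a UMI, against 2 of 69, 3 of 66 and 0 of 26 in clusters 1, 3 and 4. Whether these 12 barcodes are satellite cells could not be settled from these markers. The S phase genes outside the rule summed to 709.7 CPM in cluster 2, against 232, 263 and 505 CPM.

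Genes that led cluster 4 included Ccnb2, Ifi27l2a, Cenpa, Stmn1, Mest, H19 and S100a4. Ccnb2, the cyclin of mitosis entry, had 38 of its 45 UMIs in 15 of 26 cells, and the G2 and mitosis genes outside the rule summed to 914 CPM against 363, 571 and 378 CPM in clusters 1, 2 and 3. The imprinted genes Mest and H19 measured 269 and 224 CPM. Vim and the smooth muscle actin gene Acta2 measured 4332 and 2408 CPM, against 1106 and 779 CPM in cluster 1. Bgn, Cdh15 and Cd82 had a UMI in 24, 25 and 26 of the 26 cells. These were the deepest members, with 24 of 26 carrying a UMI of the 12 cycling genes, and doublets were not tested.

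**Figure D4:**
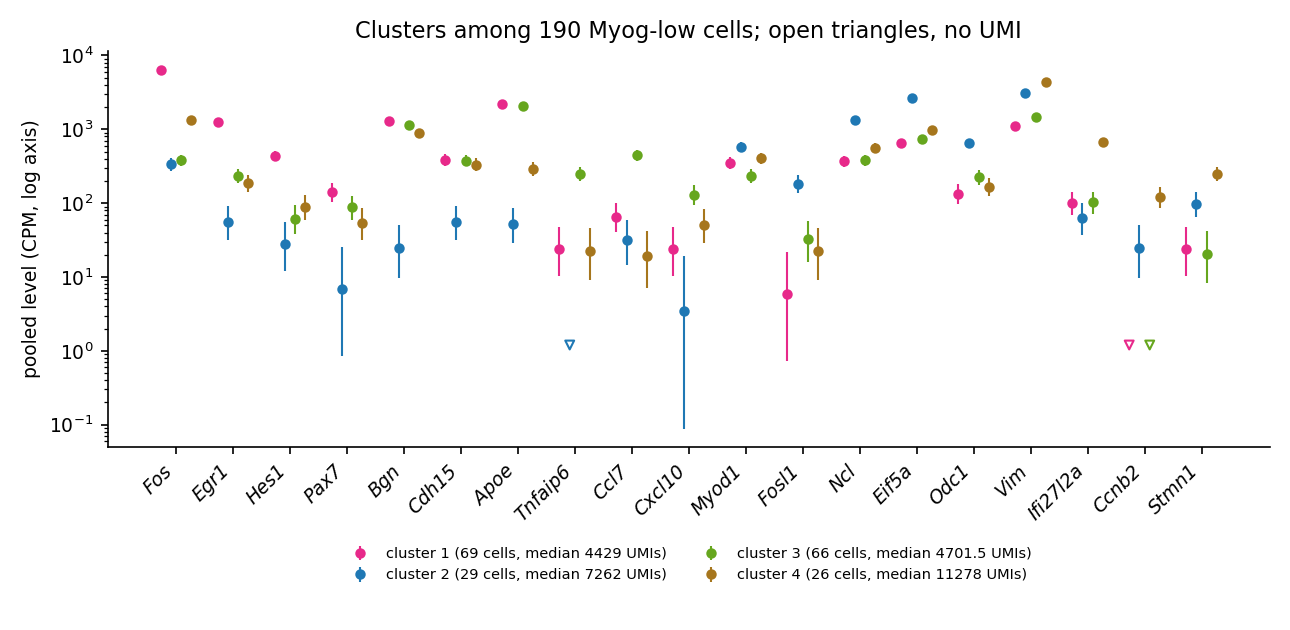
Pooled levels in CPM on a log axis for 19 genes in the 4 clusters of 190 members, with exact Poisson 95% intervals; open triangles mark clusters without a UMI. Fos, Egr1 and Hes1 are highest in cluster 1, Fosl1, Ncl, Eif5a and Odc1 in cluster 2, Tnfaip6, Ccl7 and Cxcl10 in cluster 3, and Vim, Ifi27l2a, Ccnb2 and Stmn1 in cluster 4.

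Several of the genes named share sequence or overlap others. The haemoglobin pairs and Hspa1a with Hspa1b are near-identical copies, so the split of counts within each pair is uncertain. Many named genes also overlap another annotated gene, among them protein-coding neighbours on the other strand for Timp1 (Syn1), Nhp2 (Rmnd5b), Fosl1 (Ccdc85b), Cdk4 (Tspan31), Dhps (Wdr83), Itga7 (Mettl7b), Asb5 (Spcs3), Mest (Copg2), Gas6 (Tmem255b), Gapdh (Iffo1), Junb (Prdx2), Ccnd1 (LTO1) and Cxcl10 (Art3), and Cdh15 and Cdt1 overlap the read-through model Gm20388 on their own strand. How strand was handled in counting is not given in the sources used here, so counts of these genes are less certain.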

How the data were processed

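Single-cell RNA-seq was deposited as 2 filtered count matrices, and the authors' UMI counts per gene and barcode were used as deposited, without normalization. The submitters' processing notes name Cell Ranger 7.1.0, R 4.1.2, Seurat 4.1.0 and mm10, while the matrix header names Cell Ranger 6.0.2. Aligner settings, annotation and handling of strand are not given in the sources used here. Of 32285 features 99.8% matched GENCODE M21, which gave coordinates. Barcodes were classed with Python 3.11.15, numpy 2.4.6, scipy 1.17.1 and pandas 2.3.3 by the limits given in the report, the mitochondrial limit being 10% where the study's methods give 1%. Doublets were not removed.

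UMIs were summed per class and scaled to CPM. A count of 0 was set to 3 counts per class for bounds. The named genes were the 10 highest and 10 lowest ratios over uninjured barcodes and the 8 highest and lowest over Myog-high and cycling cells, among genes not mitochondrial, not in the rule and with at least 100 CPM in the higher class, with all listed genes, the 4 markers and the 8 genes of highest fold per cluster, of which some are not reported here. The members, the 15 gene lists and the 10 lists of other cell types were chosen with earlier results of these data known, and the limits for barcodes of other types (1% erythroid, 0.3% endothelial, 3% fibroblast, 1% mural, 0.5% slow-fibre UMIs) after their values were seen. Clusters were made with scanpy 1.11.5 from log counts per 10000, 1000 variable genes, 10 principal components, 15 neighbours and Leiden resolution 0.6. The promoter search left out chromosome 18. The ratio and interval were tested on simulated data. There are no replicates, so nothing was tested, and depth limits each value to its counting interval.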

Additional observations from a re-analysis of the deposited data

How the results depend on the processing

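No paired analysis was possible because each group is 1 library, and no replicate could be left out. The number of members was 18 with a mitochondrial limit of 1%, 337 with a fibre-gene limit of 10% and 30 without barcodes with 3 UMIs of another cell type's list. The 1% limit left no uninjured barcode, so it gave no ratio over them. Against uninjured barcodes 1328 genes, in place of 682, were at least 2-fold higher with a cycling limit of 0.2%, and 394 higher and 676 lower with 50 UMIs per gene. Removing barcodes with 3 other-type UMIs left 256 genes lower and put the median of all genes at 0.54. Against Myog-high cells the 698 higher and 523 lower became 136 and 103 at the 1% limit and 332 and 249 with 50 UMIs per gene, while 378 were higher with no Myog UMI and 150 without 3 other-type UMIs. Against cycling cells the 1165 higher and 1316 lower became 190 and 587 at the 1% limit, 685 and 480 with the cycling limit of 0.2%, and 157 and 305 without 3 other-type UMIs, and 666 were higher with 50 UMIs per gene. Clusters of all members numbered 3 at resolution 0.3, and those of the 190 members 3 at resolution 0.3, 9 at 1.0 and 4 with 20 principal components.

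Single log2 ratios changed sign in 3 settings. Without other-type barcodes, a setting chosen after seeing the data, Col1a1, Col1a2 and Tnnt1 over uninjured barcodes became 0.19, 0.97 and -0.018. In the 18 members at the 1% limit, Apoe and Hes1 over the 7 Myog-high cells left became -0.33 and -0.91, and Odc1 over 21 cycling cells 0.037. In the 30 members without 3 other-type UMIs, Des and Id1 over 29 uninjured barcodes became -0.15 and 0.18, Ccl7 and Hes1 over 4 Myog-high cells -0.77 and -1.19, and Odc1 over 29 cycling cells 0.70. Ratios against a count of 0 in a setting were left out. The cause was not tested. The denominator without mitochondrial, fibre and haemoglobin UMIs kept all 91 ratios within their counting intervals. In other settings 61 of 91 left them at the cycling limit of 0.2%, 35 of 89 with at least 3000 UMIs and 26 of 88 with equal weight per cell. Without 3 other-type UMIs 56 of 63 left them. At the 1% mitochondrial limit no available ratio stayed within its interval, as 9 moved outside with the same sign and 3 changed sign.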
